A study of Rattus norvegicus with 20 samples.

Results

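The genes described here are 10 rat genes whose products mark eosinophils, basophils and mast cells, namely Mcpt8, Mcpt8l2, Rnase2, Prg2, Epx, Fcer1a, Ms4a2, Cpa3, Gata2 and Hdc. They were found by symbol among the probes of a 1-colour Agilent rat array, where all 10 were present, with 11 probes in all (2 for Fcer1a), out of 26316 genes or unnamed transcripts on the array. Blood of 20 Wistar rats was collected into an RNA-preserving tube, and 1 array was hybridised with Cy3-labelled copy RNA of each rat. Reflux esophagitis, the inflammation of the esophagus caused by gastric content, had been induced by surgery in 16 of the rats, and 4 rats had a sham operation.

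The 5 groups of 4 arrays were omeprazole at 30 mg/kg, STW5 at 2 ml/kg, STW5 at 0.5 ml/kg, untreated esophagitis and sham operation. Omeprazole blocks the acid pump of the stomach, and STW5 is a liquid herbal combination. Both were given for 7 days before surgery, and treatment was continued for the 10 days after it. All 4 operated groups carried the same surgical esophagitis, so untreated esophagitis is the reference for the 3 treated groups and sham operation is the reference for untreated esophagitis. The age and sex of the rats and any vehicle are not given in the sources used here.

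The array titles and the design text number the STW5 dose groups in opposite order, and in the authors' deposited value table the 8 STW5 columns follow the scanner values of the other dose. The dose in the array titles was used throughout, so every statement about 1 STW5 dose holds for the arrays titled with that dose. Arrays of sham and untreated rats shared 1 slide, both STW5 groups shared the second and omeprazole had the third. A difference between slides and a difference between treated and untreated rats therefore cannot be told apart, whereas untreated against sham and STW5 2 against 0.5 ml/kg were each compared within 1 slide.

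Eosinophils, basophils and mast cells are granulated cells of type 2 immunity. Eosinophil granules hold the cationic major basic protein, a peroxidase and ribonucleases. Basophils and mast cells bind IgE through a high-affinity receptor and release histamine and granule proteases when the receptor is cross-linked. Eosinophils and basophils circulate as a small share of blood leukocytes, whereas mature mast cells reside in tissue and are rare in blood. Eosinophils in the epithelium are a known feature of human reflux disease and of eosinophilic esophagitis. In whole blood, fewer cells of a type and less RNA per cell cannot be told apart.

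The level of a probe is given on the log2 scale relative to the 75th percentile of its own array, so that 0 is a fairly bright probe and each step of 1 is a doubling. Levels are compared between arrays and not between probes. Whole blood markers were in place: the globin gene Hbb had levels of 9.33 to 11.63 and the haem synthesis gene Alas2 9.92 to 12.18, and both, with the T cell gene Cd3e and the neutrophil gene Csf3r, were well above background on all 20 arrays. The 75th percentile itself ran from 71.3 to 308 scanner units, with STW5 2 ml/kg at 71.3 to 163 and STW5 0.5 ml/kg at 152 to 308, so most arrays titled with the higher dose were dimmer. Replicate 2 of untreated esophagitis stood apart in the levels of cell type genes: the mean deviation of a list's genes from their averages over the 20 arrays, used below as a summed level, was -2.29 there for 11 T cell genes and 1.96 for 15 neutrophil genes, each the most extreme value of the 20 arrays. Cells were not counted.

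Mcpt8 and Mcpt8l2 belong to a cluster of protease genes on chromosome 15 with similar sequences, so their probes are shown first. RefSeq orders the named genes of the region as Cma1, Mcpt4l1, Mcpt4, Mcpt3, Vch, Mcpt8l3, Mcpt8l2, Mcpt8, Mcpt1l3, Mcpt9, Mcpt1, Mcpt1l1, Mcpt10 and Ctsg, with unnamed loci between some of them. The probe of Mcpt8 resembled a probe of the gene listed as RGD1565970, with 55 of 58 overlapping bases alike, so the Mcpt8 values may include that transcript, and cross-hybridisation was not tested. The stretches shown are bases 3 to 32 of the Mcpt8 probe and bases 1 to 30 of the RGD1565970 probe, with differing bases in capitals.
Mcpt8: tccagcAtcctggggtatggctatctGagt
RGD1565970: tccagcCtcctggggtatggctatctAagt
The Mcpt8l2 probe was less close to its nearest neighbour, with 33 of 41 overlapping bases shared with the probe of Mcpt8l3, again with differing bases in capitals.
Mcpt8l2: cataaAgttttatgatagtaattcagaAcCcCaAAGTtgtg
Mcpt8l3: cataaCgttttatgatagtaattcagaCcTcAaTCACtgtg
The probes of Mcpt8 and Mcpt8l2 themselves matched at no more than 18 of 56 bases, and those of Mcpt8 and Mcpt9 at 23 of 57.

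Around the start sites, Mcpt8 and Mcpt8l2 were close to identical. Promoter sequences from RefSeq (build GRCr8, 250 bases before to 50 bases after the start) were present for 8 of the 10 genes, all except Prg2 and Ms4a2. Those of Mcpt8 (chr15:33769417-33769698, plus strand) and Mcpt8l2 (chr15:33718231-33718512, plus strand) could be aligned without gaps over 282 bases, of which 273 (96.8%) were the same. The aligned stretches are shown because the likeness of the levels of the 2 genes is described below, with the 9 differing bases in capitals.
Mcpt8: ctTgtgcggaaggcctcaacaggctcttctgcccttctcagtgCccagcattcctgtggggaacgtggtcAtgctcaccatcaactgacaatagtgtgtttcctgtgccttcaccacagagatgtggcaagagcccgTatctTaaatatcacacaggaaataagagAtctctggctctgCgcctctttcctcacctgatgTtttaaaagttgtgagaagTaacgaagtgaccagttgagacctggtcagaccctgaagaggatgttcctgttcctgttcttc
Mcpt8l2: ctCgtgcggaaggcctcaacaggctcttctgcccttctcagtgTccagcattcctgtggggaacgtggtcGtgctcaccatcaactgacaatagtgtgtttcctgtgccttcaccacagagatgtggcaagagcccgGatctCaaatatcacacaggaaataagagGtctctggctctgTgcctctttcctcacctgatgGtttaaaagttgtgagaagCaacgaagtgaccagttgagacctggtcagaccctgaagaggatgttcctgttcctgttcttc
Binding sites of GATA factors, the family of the lineage factor Gata2, were searched for on both strands as the letters GATA with A or T before them and A or G after them. A match was present in the promoters of 2 of the 8 genes, 1 in Fcer1a and 2 in Cpa3, and in 30.3% of all 33469 rat promoters of the same length. Neither protease promoter shown held these letters.

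**Figure D1:**
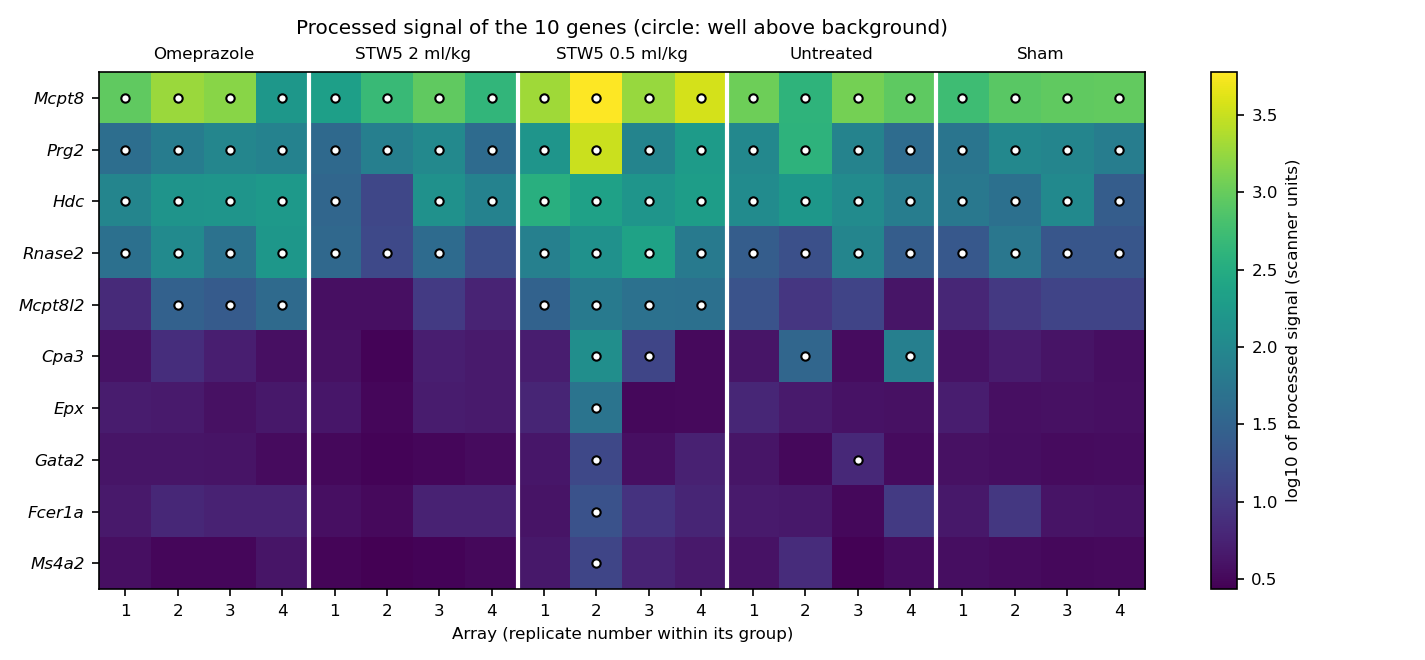
Processed signal (colour, log10 of scanner units) of the 10 genes (rows) on the 20 arrays (columns, by group and replicate number), with a circle where the probe was well above background. The brighter of the 2 probes is drawn for Fcer1a. The second array of STW5 0.5 ml/kg is the only column with a circle in every row.

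Of the 10 genes, 6 were well above background on at least 4 arrays and were tested, and 4 were not. Mcpt8 and Prg2 passed on all 20 arrays, Rnase2 and Hdc on 19 each, Mcpt8l2 on 7 and Cpa3 on 4. Gata2 passed on 2 arrays, Epx and Ms4a2 on 1 each, and Fcer1a on 1 array with 1 probe and on none with the other. Per array, 4 to 5 of the genes were above background in omeprazole rats, 3 to 4 in STW5 2 ml/kg rats, 5 to 10 in STW5 0.5 ml/kg rats, 4 to 5 in untreated rats and 4 in each sham rat. The array with all 10 was replicate 2 of STW5 0.5 ml/kg. It also had the highest 75th percentile of the 20 arrays (308 scanner units), but replicate 3 of the same group, at 288, had 6 of the 10 above background.

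Among the eosinophil granule genes, Prg2, which encodes major basic protein, varied between rats more than between groups. Its levels were -1.11, -1.30, -0.80 and -1.46 in omeprazole rats and -1.03, 0.09, -0.68 and -1.41 in STW5 2 ml/kg rats. In STW5 0.5 ml/kg rats they were -0.01, 3.39, -1.73 and 0.01, against -0.34, 1.27, -1.65 and -2.40 in untreated rats and -1.11, -0.80, -0.17 and -0.46 in sham rats. All 5 groups overlapped, and a single rat of STW5 0.5 ml/kg stood far above the rest, with 3218 scanner units where the other 19 arrays had 38.2 to 399.5. The spread of Prg2 within groups (SD 1.25) was larger than that of 98.6% of the genes tested, whose median SD was 0.51. No test of Prg2 passed, with an adjusted p of 0.525 for a difference anywhere among the 5 groups (limma's F test).

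Epx, the eosinophil peroxidase gene, was measured in that same rat only. Its signal there was 53.1 scanner units, against 3.11 to 6.30 on the other 19 arrays, none of them above background. Prg3 and Rnase3 of the wider eosinophil list are given after their values were seen. Over the 10 tested genes of that list the summed level in this rat was -0.040, near the average. Of 34 tested genes of the wider eosinophil, basophil and mast cell lists, 3 (8.82%) were highest in this rat, beside 6.80% of all genes. Prg3, a homologue of major basic protein, had 105.8 units in replicate 2 of STW5 0.5 ml/kg and was otherwise above background only in untreated replicate 2, at 14.8 units. Rnase3, which encodes another eosinophil ribonuclease, was above background in replicate 2 of STW5 0.5 ml/kg alone, at 45.9 units. The eosinophil receptor gene Il5ra, which encodes the receptor chain for interleukin 5, was above background on no array.

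Rnase2, a ribonuclease gene of the eosinophil-derived neurotoxin family, behaved differently from Prg2 and Epx. Its levels were -1.03, -0.67, -1.74 and -0.51 in omeprazole rats. They were -1.06, -2.24, -2.03 and -2.61 in STW5 2 ml/kg rats and -0.96, -1.22, -0.34 and -1.52 in STW5 0.5 ml/kg rats. Untreated rats had -2.22, -3.24, -1.55 and -3.08, and sham rats -2.35, -1.60, -2.27 and -2.19. Omeprazole and STW5 0.5 ml/kg thus held the highest levels, at means of -0.99 ± 0.55 and -1.01 ± 0.50, followed by STW5 2 ml/kg at -1.99 ± 0.66, sham at -2.10 ± 0.34 and untreated at -2.52 ± 0.79 (SD, n = 4 each). The 3 lower groups overlapped each other. The probe is spotted 10 times on the array, so its values rest on more spots than those of the other tested genes, which have 2.

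The level of Rnase2 differed among the 5 groups, with an adjusted p of 0.0449 in limma's F test, as did that of Mcpt8l2 at 0.0384. These were 2 of the 6 genes tested, where 5.98% of all genes passed the same test. Mcpt8l2 entered the test only through omeprazole and STW5 0.5 ml/kg, the groups where it was above background, so its test is not independent of the filter. Without the filter neither gene passed, with adjusted p values of 0.0681 for Mcpt8l2 and 0.0856 for Rnase2. Both calls were close to the threshold. Left out singly, 17 of the 20 arrays cost at least 1 of the calls and 8 cost both. Both were kept only without sham replicate 2, untreated replicate 1 or STW5 2 ml/kg replicate 3. The highest adjusted p over these repeats was 0.0809 for Mcpt8l2 and 0.105 for Rnase2. Taking the brightest spot of each probe alone, an alternative chosen after the data were seen, gave adjusted p values of 0.0317 for Mcpt8l2, 0.0499 for Mcpt8 and 0.0658 for Rnase2. With the mean of its spots, Mcpt8 had an adjusted p of 0.301 in limma's F test.

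Mcpt8 encodes a granule serine protease that marks basophils in the mouse. Its levels were 3.27, 3.48, 3.20 and -0.48 in omeprazole rats and 1.44, 2.81, 2.48 and 2.04 in STW5 2 ml/kg rats. STW5 0.5 ml/kg rats had 3.72, 4.28, 2.65 and 4.30, against 3.12, 1.28, 2.17 and 2.02 in untreated rats and 2.24, 2.28, 3.14 and 3.27 in sham rats. STW5 0.5 ml/kg had the highest mean, 3.74 ± 0.77, and the other group means lay between 2.15 and 2.73, with ranges that overlapped. The probe of Mcpt8 has 2 spots, which on omeprazole replicate 4 read 9.43 and 2780 scanner units, 295-fold apart, although neither was marked as an outlier. On the other 19 arrays the 2 spots agreed within 1.08-fold. The brighter spot alone gave this array a level of 3.63, a little above the 3.22 to 3.53 of the other omeprazole rats by their brighter spots. Among 25697 spot pairs on the 20 arrays with a brighter spot of at least 1000 units, this was the only 1 with a difference of 100-fold or more.

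Mcpt8l2, the nearest named gene before Mcpt8 in the cluster, was dim, and its values are given as signals, which also carry the brightness of each array. Omeprazole rats had 6.91, 29.4, 24.6 and 38.8 scanner units and STW5 2 ml/kg rats 3.78, 3.71, 10.1 and 5.89. STW5 0.5 ml/kg rats had 31.0, 62.9, 48.0 and 46.4 units, against 19.8, 9.18, 13.0 and 4.25 in untreated rats and 6.18, 9.92, 13.1 and 13.4 in sham rats. It was above background in all 4 STW5 0.5 ml/kg rats and in omeprazole replicates 2, 3 and 4, and in no other rat. The 4 STW5 0.5 ml/kg signals were higher than those of every STW5 2 ml/kg, untreated and sham rat. Mean levels were -2.90 ± 0.61 in omeprazole, -4.20 ± 0.15 in STW5 2 ml/kg, -2.29 ± 0.24 in STW5 0.5 ml/kg, -4.22 ± 1.25 in untreated and -3.55 ± 0.73 in sham rats (SD, n = 4 each).

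**Figure D2:**
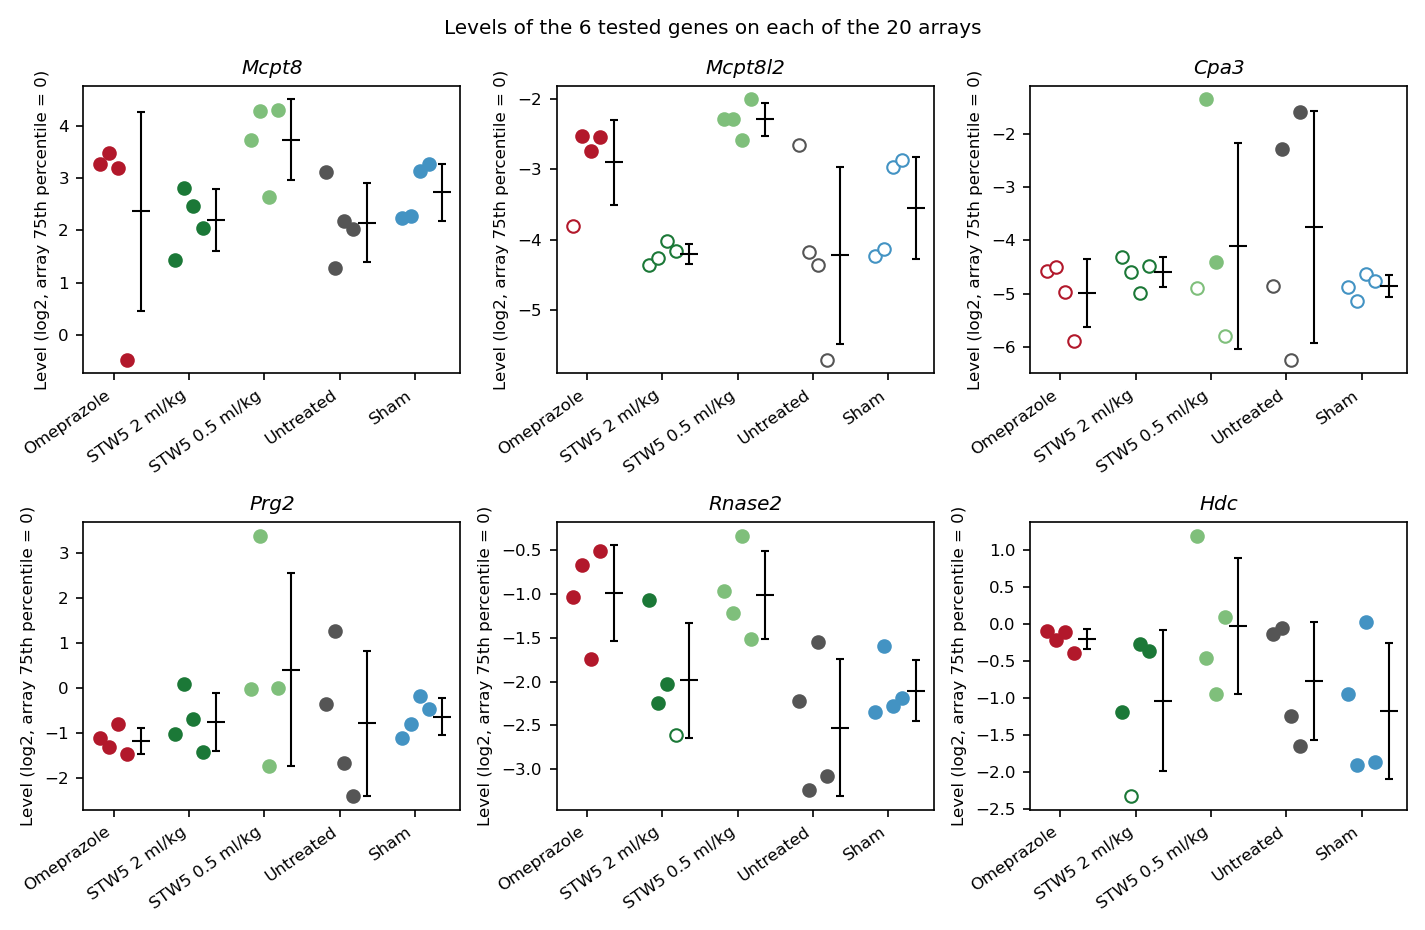
Levels (log2, relative to the 75th percentile of the array) of the 6 tested genes, with 1 point per array, filled where the probe was well above background, and bars for the mean ± SD of each group. In Rnase2 and Mcpt8l2 the STW5 0.5 ml/kg points lie above the untreated points without overlap, while Prg2 and Cpa3 are spread by single rats.

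Further proteases of the cluster were compared, chosen after the values of some were seen. Mcpt9 had levels of 2.29, 2.56, 2.31 and 2.66 in omeprazole rats, 0.26, 1.81, 1.55 and 1.03 in STW5 2 ml/kg rats and 2.87, 3.19, 1.65 and 3.32 in STW5 0.5 ml/kg rats, against 2.17, 0.29, 1.14 and 1.19 in untreated rats and 1.33, 1.25, 2.12 and 2.26 in sham rats. In limma's F test, which 5.98% of all genes passed, Mcpt9 had an adjusted p of 0.0454, Mcpt10 0.0317, Mcpt8l3 0.0981 and RGD1565970 0.0716. Over the 20 arrays the levels of Mcpt8 and Mcpt9, taken relative to the array median, had a Pearson r of 0.58 with the mean of the spots (Spearman's rho 0.79) and of 0.99 with the brighter spot (rho 0.98). With the mean of the spots, r was 0.46 for Mcpt8l2 (0.15 within groups), 0.58 for Mcpt10 and 0.62 for Mcpt8l3. With the brighter spot, r was 0.97 for Mcpt10, 0.80 for Mcpt8l2 and 0.69 for Mcpt8l3. Without the 2 arrays farthest from the median of Mcpt8, the values with the brighter spot were 0.99 for Mcpt9, 0.95 for Mcpt10, 0.78 for Mcpt8l2 and 0.65 for Mcpt8l3. The points share the array, its signal and the treatment groups, so these are descriptions. Mcpt8l3 departed from the others in omeprazole rats, with a mean of -3.62 ± 0.16, against -3.69 ± 0.97 in untreated rats (SD, n = 4 each). RGD1565970, the gene with the similar probe, had mean levels of 2.22 ± 0.20 in omeprazole, 1.10 ± 0.68 in STW5 2 ml/kg, 2.84 ± 0.97 in STW5 0.5 ml/kg, 1.05 ± 0.85 in untreated and 1.73 ± 0.66 in sham rats (SD, n = 4 each).

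**Figure D3:**
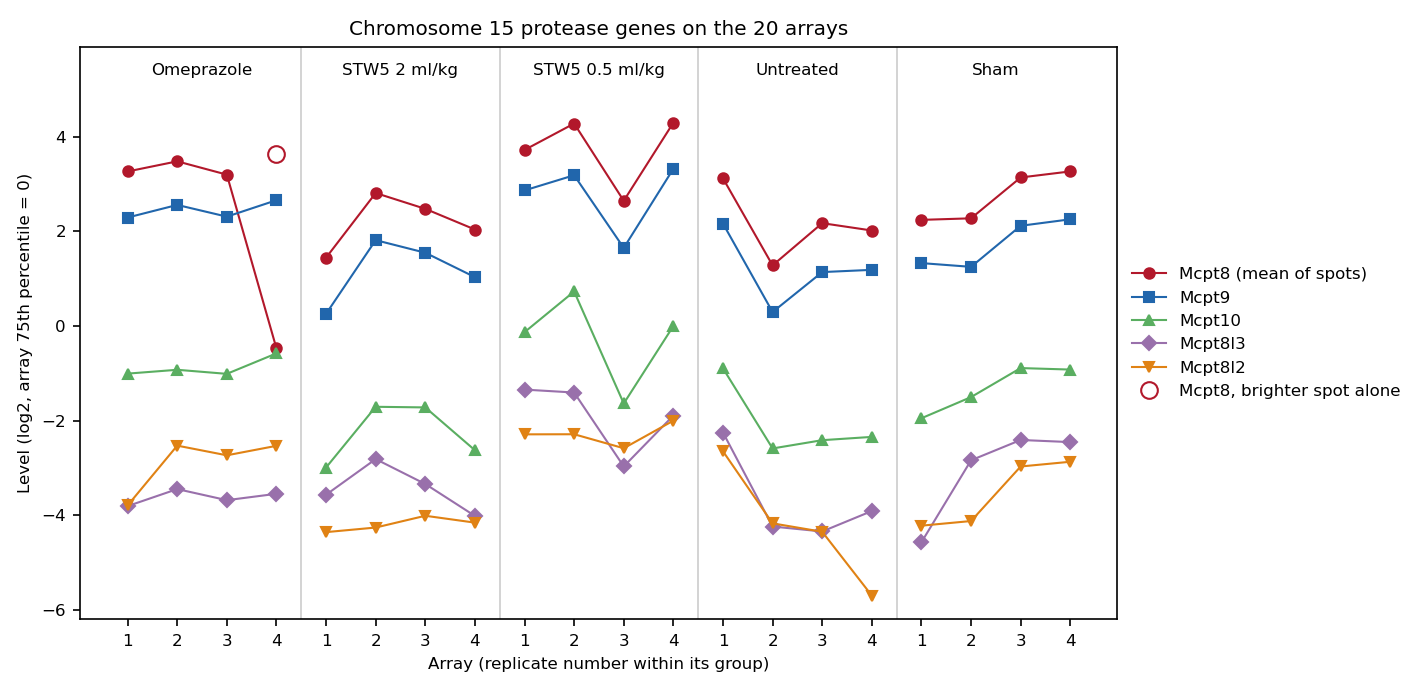
Levels (log2, relative to the 75th percentile of the array) of 5 protease genes of chromosome 15 on the 20 arrays, ordered by group and replicate number. The lines of Mcpt8, Mcpt9 and Mcpt10 run in parallel except on omeprazole replicate 4, where the mean of the 2 Mcpt8 spots is low and the brighter spot alone (open circle, 3.63) is not.

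Cpa3, carboxypeptidase A of mast cell and basophil granules, was above background on 4 arrays only. Its signals were 3.78 to 7.56 scanner units in omeprazole rats and 2.96 to 5.13 in STW5 2 ml/kg rats, none above background. STW5 0.5 ml/kg rats had 5.13, 121.6, 13.5 and 3.35 units, against 4.28, 34.1, 3.50 and 74.4 in untreated rats and 3.59 to 4.91 in sham rats. The high values belonged to STW5 0.5 ml/kg replicate 2 and untreated replicates 2 and 4, and in STW5 0.5 ml/kg replicate 3 only 1 of the 2 spots was above background. No test of Cpa3 passed, with an adjusted p of 0.685 in limma's F test.

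The same 3 rats also stood out in other mast cell genes, which were chosen here after their values were seen. Cma1, which encodes mast cell chymase, had levels of -2.60 to -1.77 in omeprazole rats and -4.36 to -1.83 in STW5 2 ml/kg rats. It had -2.84, 1.20, -1.59 and -1.83 in STW5 0.5 ml/kg rats, against -0.86, 0.77, -1.70 and 2.25 in untreated rats and -2.57 to -0.87 in sham rats. The tryptase gene Tpsab1 had -2.04 in STW5 0.5 ml/kg replicate 2, against -0.28 and -1.39 in untreated replicates 2 and 4, and on the other 17 arrays it was between -6.31 and -4.25. Enpp3, an ectoenzyme gene of mast cells and basophils, had 0.35 in STW5 0.5 ml/kg replicate 2, against 2.91 and 4.73 in untreated replicates 2 and 4, and -1.26 to -0.36 on the others. The second tryptase gene, Tpsb2, had its 3 highest levels in the same rats, -2.42 in STW5 0.5 ml/kg replicate 2, against -1.15 and -2.76 in untreated replicates 2 and 4. These genes were high in 1 of 4 STW5 0.5 ml/kg rats and 2 of 4 untreated rats. They were picked from the 11 tested genes of the list. Mcpt3 and Mcpt4l1 were above background on no array and Mcpt4 on omeprazole replicate 3 alone, so these proteases could not be compared. The protease gene Mcpt1l4 was higher in untreated than in sham rats by 1.37 (adjusted p 0.243 in limma). Kit went the other way from Cma1 and Enpp3 in STW5 2 ml/kg against untreated rats. It differed by 1.21 (adjusted p 0.152 in limma), against -2.97 for Cma1 and -2.38 for Enpp3.

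**Figure D4:**
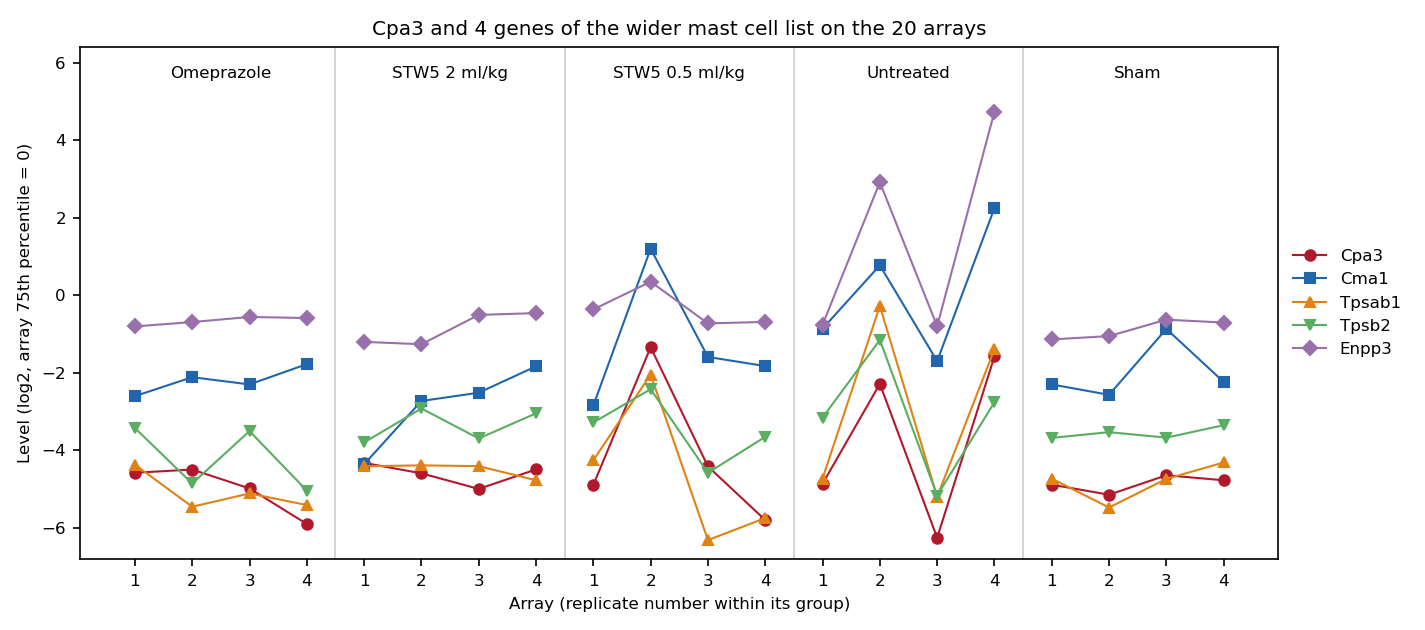
Levels (log2, relative to the 75th percentile of the array) of Cpa3 and of 4 further mast cell genes on the 20 arrays, ordered by group and replicate number. The peaks fall on STW5 0.5 ml/kg replicate 2 and untreated replicates 2 and 4, where Cpa3 reached -1.34, -2.28 and -1.58.

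Genes of other cell types also differed in these rats, and their part in the mast cell values was not tested. For the 15 tested neutrophil genes of a list of 16 the summed level was 0.28 in STW5 0.5 ml/kg replicate 2, against 1.96 and -0.46 in untreated replicates 2 and 4. For the 11 tested T cell genes of a list of 12 it was 0.41 in STW5 0.5 ml/kg replicate 2, against -2.29 and -0.42 in untreated replicates 2 and 4. Neither list moved the same way in all 3 rats. The summed level of the 11 monocyte genes was positive in all 3, at 0.47 in STW5 0.5 ml/kg replicate 2, against 0.84 and 1.17 in untreated replicates 2 and 4. It was also 0.56 in STW5 0.5 ml/kg replicate 3, which is not among the 3 rats. That of 8 platelet and megakaryocyte genes was positive in the 3 rats too, at 0.33, against 1.08 and 0.04.

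The IgE receptor genes were at or near background. The 2 probes of Fcer1a, the IgE-binding chain, reached 18.8 and 10.8 scanner units in STW5 0.5 ml/kg replicate 2, where the brighter was above background, and no more than 10.0 on any other array. Ms4a2, the signal-amplifying beta chain, had 13.7 units in the same rat and 2.73 to 7.34 on the others. The shared signalling chain Fcer1g and the kinases Syk, Lyn and Fyn belong to a list of 19 IgE receptor signalling genes, all tested. None passed in the 6 comparisons, in which limma called 0% to 4.17% of all genes, and 0 to 3 had an unadjusted p below 0.05, beside 5.94% to 26.6% of all genes. Many of these act in other blood leukocytes too.

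Gata2, a transcription factor of the mast cell and basophil lineages, was above background at 14.5 units in STW5 0.5 ml/kg replicate 2 and at 6.69 units in untreated replicate 3. Elsewhere it had 2.96 to 5.51 units. Of a list of 18 lineage transcription factors, which include Gata1, Cebpa and Mitf, 17 were tested. None passed, beside the same 0% to 4.17% of all genes, and 0 to 7 had an unadjusted p below 0.05, beside 5.94% to 26.6% of all genes. The 7 were those of untreated against sham rats, 5 higher and 2 lower, where 18.2% of all genes had such a p.

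Hdc makes histamine from histidine. Its levels were -0.09, -0.22, -0.11 and -0.39 in omeprazole rats and -1.19, -2.34, -0.27 and -0.36 in STW5 2 ml/kg rats. They were 1.20, -0.46, -0.94 and 0.09 in STW5 0.5 ml/kg rats, against -0.14, -0.05, -1.24 and -1.65 in untreated rats and -0.95, -1.91, 0.02 and -1.87 in sham rats. The 4 omeprazole rats lay close together, with an SD of 0.13, whereas the SD of the other groups was 0.80 to 0.96. Each group overlapped at least 1 other, and no test of Hdc passed (adjusted p 0.314 in limma's F test). The histamine receptor and turnover genes gave no call either, with 0 of 7 tested past the threshold in each comparison, beside 0% to 4.17% of all genes. At an unadjusted p below 0.05 there were 0 to 3, beside 5.94% to 26.6% of all genes. The 3 were lower in untreated against sham rats and higher in STW5 2 ml/kg against untreated rats, beside 18.2% and 23.5% of all genes in either direction.

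Omeprazole against untreated esophagitis compares the blood of operated rats with and without the drug. The 2 groups were on different slides, so drug and slide cannot be told apart. At an unadjusted p below 0.05, 2 of the 6 genes and 15.5% of all genes differed. Rnase2 was higher in omeprazole rats by 1.53 ± 0.40 on the log2 scale, or 2.90-fold, with an adjusted p of 0.0287 (SE, limma, n = 4 each). It was the only 1 of the 6 genes past the threshold, while 4.17% of all genes passed in this comparison and 0.347% passed as higher. The groups still touched, since omeprazole replicate 3 had -1.74 and untreated replicate 3 had -1.55. The call was lost when omeprazole replicate 1 (1.55), 2 (1.43) or 4 (1.38) or untreated replicate 2 (1.30) or 4 (1.35) was left out, with adjusted p values of 0.0591 to 0.117. Median scaling gave an adjusted p of 0.0505, scaling on the spiked-in control probes 0.143, no filter on dim probes 0.0547 and a fit of these 2 groups alone 0.153.

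Mcpt8l2 was at least 2.50-fold higher in omeprazole than in untreated rats, with 3 of 4 omeprazole rats and no untreated rat well above background (log2 difference 1.32 ± 0.47, adjusted p 0.155 in limma). Without untreated replicate 1, which had the highest signal of its group, the difference was 1.84 and passed with an adjusted p of 0.00741. Without untreated replicate 4, which had the lowest, it was 0.83 with an adjusted p of 0.442. The mean of the 2 Mcpt8 spots gave no difference past an unadjusted p of 0.05. With the brighter spot Mcpt8 was higher by 1.25 ± 0.41, with an adjusted p of 0.119 (SE, limma, n = 4 each). Mcpt9 had a difference of 1.26 and Mcpt10 of 1.18, with adjusted p values of 0.118 and 0.193, whereas Mcpt8l3 had 0.066 with an adjusted p of 0.960. The other 3 genes, Prg2, Cpa3 and Hdc, had differences of -1.24 to 0.57.

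The 3 comparisons with untreated rats share the same 4 untreated arrays, so their differences for a gene are not independent of each other. In STW5 0.5 ml/kg against untreated rats, none of the 6 genes passed, and limma called 0% of all 15261 genes. At an unadjusted p below 0.05 it marked 3 of the 6, all higher, and 5.94% of all genes, or 2.42% counting higher genes alone. Mcpt8l2, which passed the filter through the treated groups alone, was at least 3.80-fold higher (log2 difference 1.93 ± 0.47, adjusted p 0.449 in limma). Rnase2 differed by 1.51 ± 0.40 with an adjusted p of 0.476, and Mcpt8 by 1.59 ± 0.67 with an adjusted p of 0.743. In Mcpt8l2 and Rnase2 the 2 groups did not overlap, which held for 1.89% of all genes. Leaving out untreated replicate 1 gave Mcpt8l2 a difference of 2.45, past the threshold with an adjusted p of 0.0406, and leaving out untreated replicate 4 gave 1.43 with an adjusted p of 0.963.

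STW5 2 ml/kg against untreated rats gave no gene past the threshold, with 0% of all genes called and 23.5% at an unadjusted p below 0.05. None of the 6 genes had an unadjusted p below 0.05 (lowest 0.192), and their log2 differences were -0.86 to 0.54. For Mcpt8l2 the difference was 0.02, with a 95% interval of -0.96 to 1.00, and neither group had a rat above background. Taking both doses together, Rnase2 had a difference of 1.03 ± 0.34 (adjusted p 0.464 in limma). Mcpt8l2 was 1.96-fold higher by the group means, with 4 of 8 treated rats and no untreated rat above background. Its log2 difference was 0.97 ± 0.41, with a 95% interval of 0.12 to 1.82 (adjusted p 0.482 in limma). Without untreated replicate 4 the Mcpt8l2 difference was 0.48, and without untreated replicate 1 it was 1.497. None of the 6 genes and 0% of all genes passed in that comparison, and 2 of the 6 and 9.54% of all genes had an unadjusted p below 0.05.

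Within the STW5 slide, all 6 tested genes had lower means in STW5 2 ml/kg than in STW5 0.5 ml/kg rats. Of these, Mcpt8l2 and Cpa3 passed the filter with no STW5 2 ml/kg rat above background. The 4 genes left out by the filter, at or near background, had higher means in STW5 2 ml/kg, by 0.07 to 0.35. None of the 6 passed, and 0% of all genes did. At an unadjusted p below 0.05 there were 3 of the 6 and 26.6% of all genes, or 7.05% counting lower genes alone. Mcpt8l2 was at least 3.05-fold lower in STW5 2 ml/kg rats (log2 difference -1.91 ± 0.47, adjusted p 0.0623 in limma), and its groups did not overlap, as in 11.2% of all genes. Mcpt8 differed by -1.54 ± 0.67 (adjusted p 0.157) and Rnase2 by -0.98 ± 0.40 (adjusted p 0.140). With the brighter spot, the difference of Mcpt8 was -1.54 ± 0.41 with an adjusted p of 0.0732. Mcpt10 differed by -2.00, Mcpt9 by -1.59 and Mcpt8l3 by -1.53, with adjusted p values of 0.0555 to 0.0968.

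The median difference of all genes between the doses was 0.18. The array signal, mostly lower in STW5 2 ml/kg, moved with the dose. With the array signal in the fit as a covariate, Mcpt8l2 had a difference of -2.26 ± 0.63 (adjusted p 0.153) and Mcpt8 of -2.54 ± 0.85 (adjusted p 0.207). The call of Mcpt8l2 depended on the settings: it passed without STW5 2 ml/kg replicate 3 (-1.97, adjusted p 0.0430), without untreated replicate 1 (-1.91, adjusted p 0.0453), which enters only through the shared spread, with median scaling (-2.20, adjusted p 0.0489), without the filter (-1.91, adjusted p 0.0473) and with spike-in scaling (-3.17, adjusted p 0.00692). If the doses of the design text are used in place of the titles, these differences change sign.

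In untreated esophagitis against sham, which asks what reflux itself changed, none of the 6 genes passed or reached an unadjusted p of 0.05. Their log2 differences were -0.67 to 1.12, with SEs of 0.40 to 0.85 and adjusted p values of 0.379 to 0.917. In all, 0.00655% of genes passed and 18.2% had an unadjusted p below 0.05. The largest difference was that of Cpa3, higher in untreated rats by 1.12, with a 95% interval of -0.67 to 2.90. It rested on untreated replicates 2 and 4, the only arrays of these groups above background. For Prg2 the difference was -0.15, with a 95% interval of -1.81 to 1.52.

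**Figure D5:**
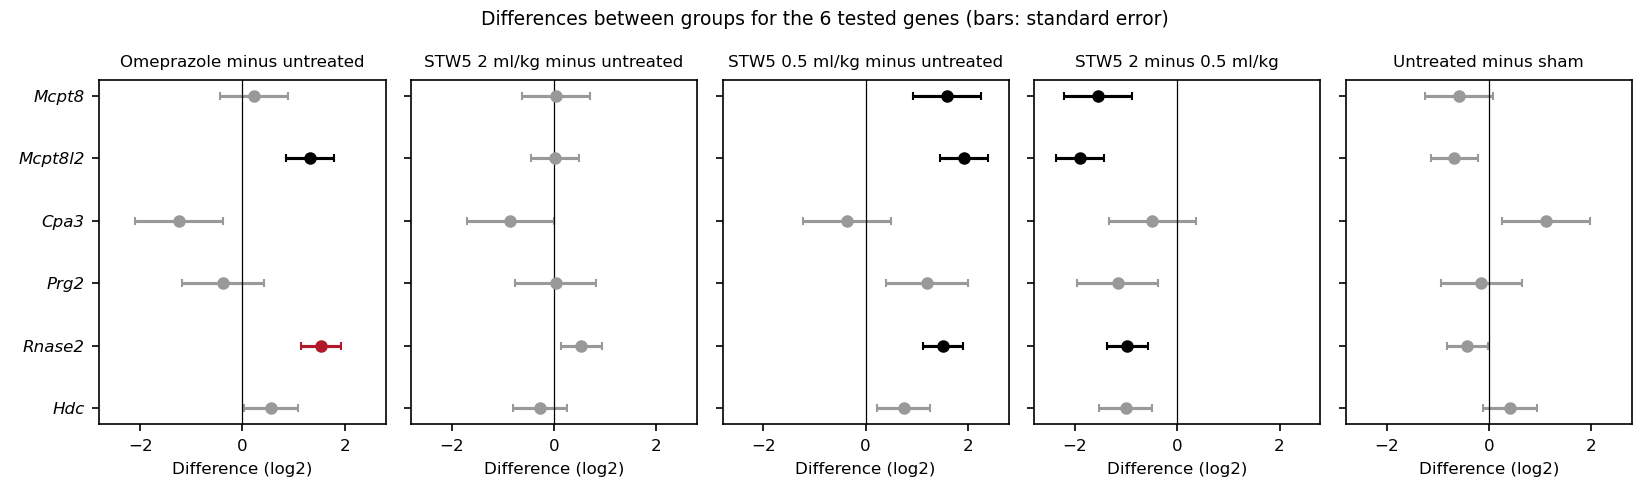
Differences between groups (log2, points) with standard errors (bars) for the 6 tested genes in 5 comparisons. Red marks an adjusted p below 0.05, black an unadjusted p below 0.05 alone and grey neither, and Rnase2 in omeprazole minus untreated (1.53 ± 0.40) is the only red point.

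The wider gene lists held few calls. Of the eosinophil list 10 of 18 genes were tested, of the basophil list 14 of 19 and of the mast cell list 11 of 22, and none of these passed in any of the 6 comparisons, where 0% to 4.17% of all genes did. At an unadjusted p below 0.05 there were 0 to 2 eosinophil, 3 to 8 basophil and 1 to 6 mast cell genes, depending on the comparison, beside 5.94% to 26.6% of all genes. The 3 basophil genes were those of STW5 0.5 ml/kg against untreated rats, beside 5.94% of all genes. The 8 were those of STW5 2 against 0.5 ml/kg, beside 26.6%. The 6 mast cell genes were found in STW5 2 ml/kg and in both doses against untreated rats, beside 23.5% and 9.54% of all genes. Of 20 genes of type 2 cytokines, eosinophil chemokines and their receptors, 11 were tested. In untreated against sham rats, 6 of these 11 were higher and 1 lower at an unadjusted p below 0.05, beside 18.2% of all genes. Of the 11, 1 passed, in omeprazole against untreated rats. This was Ccl24, which encodes the eosinophil chemoattractant eotaxin-2. It had levels of 3.16, 3.04, 3.28 and 2.96 in omeprazole rats, against 4.18, 4.33, 4.83 and 4.58 in untreated rats, without overlap, and fell by 1.37 ± 0.24 with an adjusted p of 0.000811 (SE, limma, n = 4 each), in a comparison where 3.83% of all genes passed as lower. Medians over the tested mast cell list were -0.60 in omeprazole against untreated and 0.50 in untreated against sham, beside 0.10 and -0.19 for all genes. In these comparisons the medians were 0.12 and 0.16 for the eosinophil list and 0.29 and -0.45 for the basophil list. The summed level of the mast cell list was 1.34 and 1.51 in untreated replicates 2 and 4 and -0.14 and -0.38 in replicates 1 and 3. The median of the monocyte list was 1.13 in untreated against sham, and its part in the mast cell values was not tested.

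At an unadjusted p below 0.05 alone, the lists gave further values that stayed short of the threshold. In omeprazole against untreated rats Mitf, a lineage transcription factor of mast cells, differed by -0.60, Cma1 by -2.31, Enpp3 by -2.18 and the IgE receptor kinase Lyn by -1.03, with adjusted p values of 0.133 to 0.178. In STW5 2 ml/kg against untreated rats Cma1 differed by -2.97, Enpp3 by -2.38 and Mitf by -0.61. The prostaglandin D2 receptor gene Ptgdr2 differed by 1.25, the cytokine gene Il13 by 1.33 and the receptor gene Mrgprb4 by 1.38 there, and these 6 had adjusted p values of 0.0973 to 0.112. In STW5 0.5 ml/kg against untreated rats the 3 smallest p values belonged to Mcpt10 (1.80), Mcpt9 (1.56) and Mcpt8l3 (1.78), with adjusted p values of 0.461 to 0.476.

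In STW5 2 against 0.5 ml/kg Ptgdr2 differed by 1.26, the protease gene Prss34 by 1.17, Mrgprb4 by 1.17 and the myeloid transcription factor gene Cebpa by -1.19. Their adjusted p values were 0.0873 to 0.0953. Of the 14 tested basophil genes, 3 were higher and 5 lower at an unadjusted p below 0.05, beside 19.5% and 7.05% of all genes. The share of higher genes between the doses was thus near that of all genes, and none of the list passed. In untreated against sham rats Csf2rb, the chain shared by the receptors for interleukin 3, interleukin 5 and GM-CSF, differed by 1.33. Enpp3 differed by 2.40, Csf2ra by 1.11, Mcpt1l4 by 1.37, Cd63, a granule membrane marker, by 1.51 and Il13ra1 by 1.28, all with an adjusted p of 0.243.

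Likeness to other genes was measured as Pearson's r over the 20 arrays, on levels minus the array median, for the 4 genes above background on at least 10 arrays. For Rnase2 the nearest were Fcnb (r 0.91, rho 0.93), Arhgap25 (0.89, rho 0.92) and Il36b (0.88, rho 0.88). Without the 2 arrays farthest from the median of Rnase2, the values of r were 0.87, 0.85 and 0.86. The likeness of Rnase2 to Prg2, by comparison, was -0.05. For Prg2 the nearest were RatNP-3b (r 0.84, rho 0.54), Lsm8 (0.64, rho 0.56) and Slc27a2 (0.63, rho 0.55), and without STW5 0.5 ml/kg replicate 2 and untreated replicate 2 these values of r were 0.29, 0.35 and 0.29, so the likeness rested on those 2 rats.

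For Hdc the nearest were Dnase2b (r 0.75, rho 0.58), C6h14orf28 (0.63, rho 0.49) and Sytl3 (0.58, rho 0.42), with 0.74, 0.44 and 0.35 without the 2 farthest arrays. For Mcpt8 with the mean of its spots they were Taf12 (r 0.69), Mcpt10 (0.58) and Mcpt9 (0.58), where the first falls to 0.32 without omeprazole replicate 4 and STW5 0.5 ml/kg replicate 2, and the values of Mcpt10 and Mcpt9 are 0.96 and 1.00. With the brighter spot they were Mcpt9, Mcpt10 and Mcpt8l2.

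Neutrophil genes are given beside Rnase2 as those of the most abundant other granulocyte. The summed level of 15 neutrophil genes was -0.42 to 1.11 in omeprazole rats, -1.07 to 0.43 in STW5 2 ml/kg rats, 0.28 to 0.97 in STW5 0.5 ml/kg rats, -0.64 to 1.96 in untreated rats and -1.22 to -0.52 in sham rats. None of the 15 passed in omeprazole against untreated rats, and 12 had a difference above 0 and 3 below. Their part in the values of Rnase2 was not tested.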

How the data were processed

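The deposited files are scanner output of Agilent Feature Extraction 10.7.3.1, with an intensity for every spot. Spatial and multiplicative detrending and surrogates for low signals were switched on, per the file headers, and no scaling between arrays is recorded there. The authors' own values are a ratio: each deposited value equals the processed signal divided by the median of its array's non-control spots, as a comparison with the scanner files showed. These values served as an alternative. RNA was isolated and labelled with kits, per the labels' protocols.

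Each array had 62976 spots, none saturated, and 58717 non-control spots for 30367 probes. Spots of a probe were averaged on the log2 scale without marked outliers. The 75th percentile of each array was then subtracted on that scale to give the level. A probe had to be well above background on 4 or more arrays (17237 probes), and the brightest stood for its gene (15261 genes). Group means of all 20 arrays were fitted with lmFit and eBayes of limma 3.58.1 (R 4.3.3), with 15 residual and 4.22 prior degrees of freedom, for 6 contrasts and an F test over the groups. Version 1.17.8 of data.table read the files, and python 3.11.15, numpy 2.4.6, pandas 2.3.3 and matplotlib 3.10.9 made sequence matches and figures. Tests were two-sided with Benjamini-Hochberg adjustment over all genes and a threshold of 0.05, and the code was tested on simulated data. All p values of the text come from limma, and the number of arrays limits their precision.

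Where no rat of a group had the gene above background, the fold is given as "at least", taking as the dim level, per array, the dimmest probe still above background or the gene itself if that was higher. This bound concerns the dim signal only and is no lower limit for the error of the difference. The 10 genes and all lists were chosen with earlier results of these data known. All 10 are named, with differences printed where the unadjusted p was below 0.05 and ranges otherwise. From the wider lists at most 6 genes per comparison were named, by smallest p, and further names were chosen after their values were seen. The replicate numbers of different groups were checked for pairing and were not taken as pairs in the main fit. Alternatives covered scaling, background correction, the filter, the authors' values, exchanged doses, a signal covariate, a replicate block, leaving out each array, and, added after seeing the data, the brightest spot of each probe.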

Additional observations from a re-analysis of the deposited data

Results flagged for a closer look

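Among the 30 sets of 4 levels (6 tested genes in 5 groups), 2 held an array far from the other 3 by Dixon's criterion, where chance gives about 1 in 20. Mcpt8 had -0.48 in omeprazole replicate 4, and the nearest omeprazole array had 3.20. Mcpt8l2 had -3.80 in omeprazole replicate 1, and the nearest had -2.74.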

How the results depend on the processing

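For the number of genes passing in omeprazole against untreated rats (1 of 6), median scaling, spike-in scaling, no filter on dim probes and a fit of only these groups each gave 0. For STW5 2 against 0.5 ml/kg (0 of 6), 1 passed with median scaling, the authors' deposited value table or no filter (Mcpt8l2, reversed in that table) and 1 with normexp background correction (Mcpt8), and 5 with spike-in scaling, where the median of all genes was -1.09 in place of 0.18 (-0.87 in place of 0.14 for STW5 2 ml/kg against untreated, 0.37 in place of -0.19 for untreated against sham). For a difference among any of the 5 groups (2 of 6), 4 passed with spike-in scaling, 0 with normexp or without the filter, and 1 with at least 10 arrays above background or with array signal as a covariate. With the replicate block, 1 gene passed in STW5 2 against 0.5 ml/kg and 1 among any of the 5 groups, and no other count changed. The correlations of same-numbered arrays over 40 pairs were -0.44 to 0.59 (median 0.09), with 19 over 0.1. For untreated and STW5 2 ml/kg they were 0.20, 0.34, 0.49 and 0.19, all above that value. The main fit took no pairs from the numbers. Leaving out each array gave 0 to 2 genes in omeprazole against untreated, 0 to 1 in STW5 0.5 ml/kg against untreated, 0 to 1 in STW5 2 against 0.5 ml/kg and 0 to 2 among any of the 5 groups, and 0 in the other 3 comparisons. Reversed values were 0.20 for Mcpt8l2 in STW5 2 against 0.5 ml/kg with normexp, whose background offset compresses dim signals. With the authors' value table, STW5 0.5 ml/kg against untreated gave -0.040 for Mcpt8 and -0.063 for Mcpt8l2, and STW5 2 against 0.5 ml/kg gave 1.70 for Mcpt8, 2.06 for Mcpt8l2 and 1.14 for Rnase2. With the doses exchanged these were 1.54, 1.91 and 0.98. Both follow from which arrays carry which dose. The cause of the other changes was not tested. Signal over background limits Mcpt8l2, Cpa3 and the 4 untested genes.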
